A study of Caenorhabditis elegans with 4 samples.

Results

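The centre and right arm of chromosome II of the nematode Caenorhabditis elegans held 453 of the 3669 binding regions of the transcription factor LSY-2 in the authors' combined list. The regions were chosen by 2 criteria, presence in that list and a midpoint beyond base 4900000 of chromosome II. The other 187 regions of chromosome II lay at or left of that boundary, and 3029 lay on the other 5 chromosomes. Presence in the list is itself a measured value, so it describes the regions and supports nothing about them. Across the boundary the nearest regions were II 4902061 to 4902430, II 4904240 to 4904609 and II 4942334 to 4942703 on the inside, with combined ranks 1514, 1182 and 3067. On the outside they were II 4851713 to 4851927, II 4828066 to 4828435 and II 4791286 to 4791655, with ranks 443, 1520 and 1353. Coordinates are those of genome build WS220, counted from 1.

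LSY-2 is a zinc finger protein that acts in the embryo on the choice between the left and right fates of the ASE taste neurons, where it is needed for expression of the microRNA lsy-6. It has also been linked to keeping germline genes silent in somatic cells. Worm chromosomes have gene-dense centres with little recombination, and arms that recombine more and hold more repeats. In chromatin immunoprecipitation with sequencing (ChIP-seq), DNA bound by a protein is pulled down with an antibody, here against GFP, and places where it piles up are reported as peaks. A peak marks where the protein, or a complex that holds it, was crosslinked to DNA. It does not say which gene is affected.

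The study made 2 ChIP libraries and 2 libraries of total chromatin, called input. They came from embryos of strain OP367, grown at 20 °C as a population of males and hermaphrodites. The strain carries the mutation unc-119(ed3) and the transgene wgIs367, which holds lsy-2 fused to the tags TY1, EGFP and FLAG, together with a copy of unc-119. All 4 samples carry the transgene, which was introduced by bombardment into 1 strain, so the regions are those of the tagged fusion protein. In assembly WBcel235 lsy-2 lies on X and unc-119 on III, so neither gene of the transgene has its native place on chromosome II. Where the transgene itself inserted was not examined here. Whole embryos were used, so a peak cannot be given to a cell type. Only peak lists were analysed here, 1 for each ChIP sample and 1 combined. Read depth is unknown, and no values of the inputs were used. Whether the 2 replicates were separate cultures is not stated in the labels. Rank means the number in a peak's name, with 1 as the best. The lists do not define it, but all 393 members at the maximum score of 3.80 had numbers up to 3146, and the 60 below it had numbers from 3150. Members at the maximum made up 86.8%, against 85.8% of all combined regions. Gene names are not given, since no annotation of this build was used.

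The strongest regions of the stretch stood near the top of both replicate lists. They were picked by combined rank, in a list made from these same 2 replicates. Their high replicate ranks thus follow from the choice and are no separate evidence. The first was II 10868680 to 10869142, a region of 463 bp with combined rank 8, and it stood at 11 in replicate 1 and 7 in replicate 2. The second was II 8184911 to 8185388, with combined rank 9, and it stood at 8 in replicate 1 and 11 in replicate 2. II 13872359 to 13872841 followed with combined rank 12 and ranks 14 and 8 in replicates 1 and 2. These 3 regions lay far from each other, at 5969, 3285 and 8973 kb from the boundary in that order. II 14349355 to 14349869 had combined rank 16 and ranks 20 and 13 in replicates 1 and 2. II 5055146 to 5055608 had combined rank 20 and ranks 32 and 18. II 8124776 to 8125273 had combined rank 28 and ranks 18 and 35, the largest disagreement among the 20 best ranked members at 1.94-fold.

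For the rest of the 20 best, the ranks in the 2 replicates differed by at most 1.33-fold. II 11874572 to 11874994 ranked 38 in the combined list, 39 in replicate 1 and 38 in replicate 2. II 11097220 to 11097700 ranked 46, 42 and 56 in the same lists, and II 7111565 to 7112003 ranked 48, 46 and 51. II 7104922 to 7105368 ranked 65, 67 and 68. The last 2 of these were each other's nearest neighbours, 6.64 kb apart, the only such pair among the 20 best. II 9745993 to 9746417 ranked 68 in the combined list, 68 in replicate 1 and 72 in replicate 2. II 6489739 to 6490156, rank 69, was the most isolated of the 20, with its nearest neighbour 29.9 kb away. II 8569240 to 8569662 had combined rank 86, II 14154288 to 14154677 rank 95 and II 13596480 to 13596881 rank 99. The remaining 5 of the 20 were II 8884186 to 8884608 with rank 107, II 11126355 to 11126722 with rank 120, II 9892357 to 9892742 with rank 129, II 10563344 to 10563687 with rank 136 and II 14528202 to 14528730 with rank 139. All 20 had the maximum score in each of the 3 lists, and none ranked below 140 in either replicate. They measured 344 to 529 bp.

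**Figure D1:**
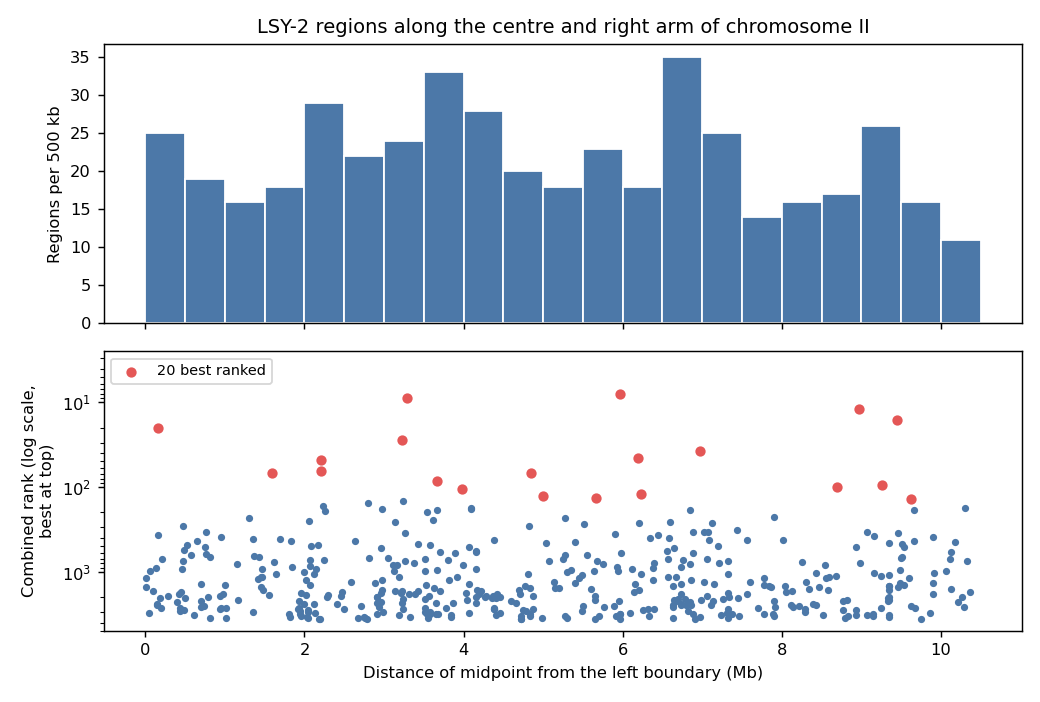
Number of LSY-2 regions per 500 kb (top) and combined rank of each region on a log scale with the best at the top (bottom), by distance of the midpoint from the left boundary in Mb. Each point is 1 of 453 regions, the 20 best ranked are red, and they are scattered over the whole stretch; the chromosome ends inside the last bar.

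The regions ran from II 4902061 to 4902430 at the left to II 15263073 to 15263442 at the right, and they covered 147 kb of a span of 10.4 Mb. The span ends at base 15276897, the last base of chromosome II in any of the 3 lists. The density was 43.7 regions per Mb, against 38.2 per Mb left of the boundary and 36.6 per Mb over all chromosomes. Counted in bins of 1 Mb from the boundary, the 10 full bins held 33 to 57 regions, with a mean of 44.2 ± 7.98 (SD over bins). The fullest was II 7900001 to 8900000 with 57 regions, of which 25 were among the 1000 best of the whole combined list. II 10900001 to 11900000 held 53 and II 6900001 to 7900000 held 51. The emptiest was II 12900001 to 13900000 with 33. The bins left of the boundary were less even, at 21 to 73 regions in full bins of 1 Mb, but the difference in evenness was not tested. The replicate lists, each limited to its first 3669 ranks, gave 35 to 58 peaks in the same 10 bins in replicate 1 and 32 to 51 in replicate 2.

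Of the members, 34.4% were among the 1000 highest ranked combined regions (156 of 453, exact 95% interval 30.1% to 39.0%), against 27.3% of the whole list. Left of the boundary it was 20.3% (38 of 187, 14.8% to 26.8%), and on the other chromosomes 26.6%. The intervals cover counting error only, and none of these differences was tested, since neighbouring regions are not independent. The median combined rank was 1633 for the members, 1981 left of the boundary and 1835 over all regions. By bin the share among the 1000 best was lowest in II 8900001 to 9900000, at 10 of 48 regions. Among full bins it was highest in the bin next to it, II 9900001 to 10900000, at 18 of 41, and in II 7900001 to 8900000, at 25 of 57.

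A round position, base 12000000, was used to split the stretch into a centre and a right end, near where the right arm is usually drawn. The right end held 119 regions in 3.28 Mb, or 36.3 per Mb, and the centre held 334 in 7.1 Mb, or 47.0 per Mb. Combined ranks ran from 12 to 3613 in the right end and from 8 to 3666 in the centre. The share among the 1000 best was 29.4% in the right end (exact 95% interval 21.4% to 38.5%) and 36.2% in the centre (31.1% to 41.6%), intervals that overlap. Of the 20 best ranked members, 5 lay in the right end and 15 in the centre.

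Neighbouring regions lay a median of 12.6 kb apart, midpoint to midpoint, with the middle 50% of the 452 gaps between 4.14 kb and 30.6 kb. Left of the boundary the median gap was 6.26 kb, and over the whole list it was 13.1 kb. The widest gap in the stretch was 154 kb, between II 14814958 to 14815104 and II 14969386 to 14969477. Next came 135 kb between II 6061472 to 6061841 and II 6196897 to 6197158, and 134 kb between II 9356656 to 9357025 and II 9490918 to 9491287. Only 14 gaps exceeded 100 kb. A neighbour within 5 kb was present for 209 members, or 46.1% (exact 95% interval 41.5% to 50.9%), against 45.9% of all combined regions and 61.5% of those left of the boundary. A neighbour within 1 kb was present for 10.8% of members, against 12% of all combined regions and 27.3% of those left of the boundary.

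**Figure D2:**
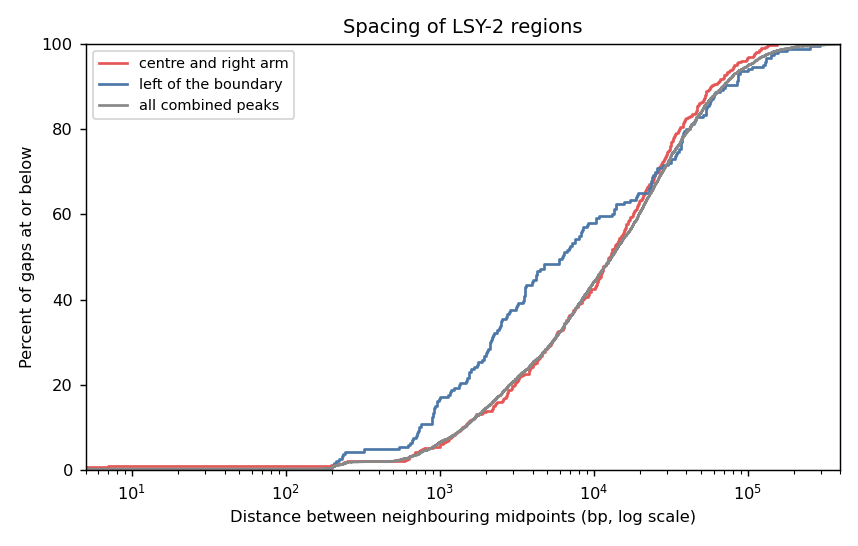
Cumulative percent of gaps between neighbouring midpoints (bp, log scale) for the centre and right arm (red), the part of II left of the boundary (blue) and all combined peaks (grey). The red and grey lines run together, with medians of 12.6 and 13.1 kb, while the blue line lies above them at short gaps with a median of 6.26 kb; gaps of 0 bp lie off the left edge.

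Linked by gaps of at most 5 kb, the members formed 324 separate sites, of which 244 were single regions and 80 were chains of 2 or more. There were 57 chains of 2 regions and 7 chains of 5 or more. The chain of 5 at II 8418728 to 8421542 held only 2 distinct intervals, each listed more than once. Chain counts over the whole list are not given here. Of the 209 regions in chains, 66 were among the 1000 best, or 31.6%, and of the 244 single regions 90 were, or 36.9%, a difference that was not tested. The longest chain had 11 regions in 16.0 kb, at II 14235878 to 14251855. Its best member, II 14251453 to 14251841 with rank 456, stood at its right edge, and the other 10 had ranks of 1101 to 3393. Among those 10, II 14251453 to 14251855 overlapped the best member, with midpoints 7 bp apart. A chain at II 9054653 to 9063809 held 6 regions in 9.16 kb with ranks of 573 to 2363, all 6 within the first 3669 ranks of both replicates. A chain of 6 at II 11534549 to 11545527 had ranks of 529 to 3528.

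The strongest region of the stretch was itself in a chain. II 10868680 to 10869142, rank 8, was 1 of 5 regions at II 10862390 to 10872778. II 10872552 to 10872778 had rank 598, while II 10867227 to 10867596, II 10862390 to 10862759 and II 10869715 to 10870084 had ranks 3163, 3183 and 3632. In replicate 2 these 3 weak companions ranked 11512, 11003 and 9487, and in replicate 1 they ranked 2674, 2287 and 4438. The strong region thus recurred at the top of both lists, and its weak companions stood far lower in replicate 2 than in replicate 1.

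Crowding was also counted in windows of 50 kb. Of 208 windows, 38 were empty and 12 held 6 or more members, and the mean was 2.18. II 8400001 to 8450000 and II 14200001 to 14250000 held 8 each. The first of these held only 5 distinct sets of coordinates, since some were listed more than once. The windows II 7850001 to 7900000, II 8100001 to 8150000, II 9050001 to 9100000 and II 12200001 to 12250000 held 7 each. Left of the boundary, in a span of 4.90 Mb, 8 windows held 6 or more regions and the fullest held 19. Window counts over the whole list are not given here. In II 14200001 to 14250000, replicate 1 had 11 peaks within its first 3669 ranks and replicate 2 had 5, and no member there was among the 1000 best. In II 8100001 to 8150000 the counts were 7 and 6, and the best member had rank 28.

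The widest regions of the whole combined list lay inside this stretch, at a locus of 2815 bp, II 8418728 to 8421542. There II 8418728 to 8420068, 1341 bp wide, was listed 3 times with ranks 995, 2128 and 2722. II 8420040 to 8421542, 1503 bp wide, was listed 2 times with ranks 704 and 2992. The 2 intervals overlap, and all 5 entries had the maximum score. The combined list had 7 sets of coordinates that occurred more than once, and these were the 2 on the centre and right arm of II. As distinct coordinates the members therefore numbered 450, and 442 once overlapping members were merged.

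The same locus held the widest entries of both replicate lists. In replicate 1, II 8418775 to 8419934 of 1160 bp was listed with ranks 721 and 832, and II 8420531 to 8421511 of 981 bp with ranks 621, 809 and 2534. In replicate 2, II 8418820 to 8419703 of 884 bp was listed with ranks 786 and 25272, and II 8420747 to 8421494 of 748 bp with ranks 701 and 2297. Most peaks of these lists had widths of 380 and 356 bp, the commonest in replicates 1 and 2. A broad pair of intervals was thus present in each list, and in each the left one ended between bases 8419703 and 8420068. No input values at this place were analysed.

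**Figure D3:**
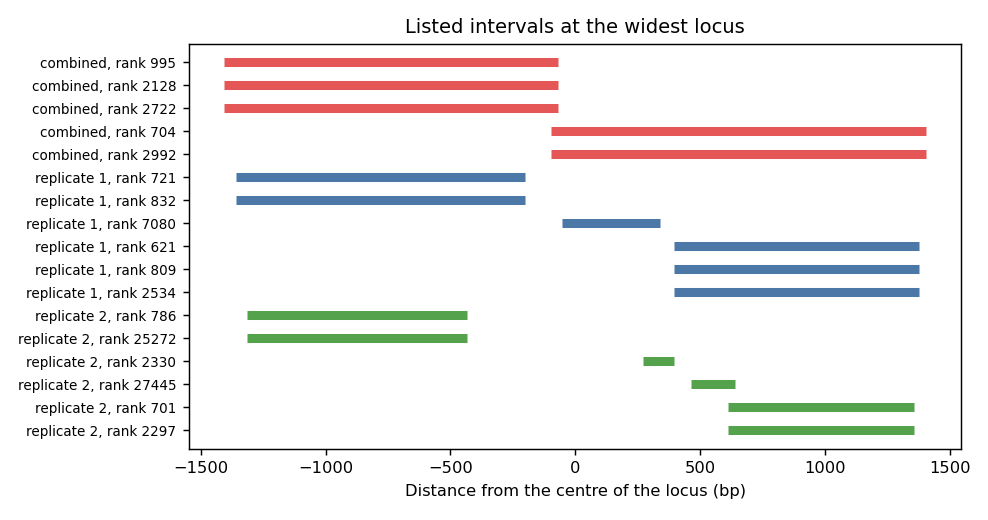
Intervals listed at the widest locus in the combined list (red), replicate 1 (blue) and replicate 2 (green), by distance in bp from the centre of the locus, 1 bar per list entry with its rank. Entries with the same coordinates repeat in all 3 lists, and the combined entries reach 1503 bp.

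Width changed with rank in 2 branches. Of the members, 64.2% had the common width of 370 bp (291 of 453, exact 95% interval 59.6% to 68.7%), against 71.1% of all combined regions. The first of these stood only at rank 437. All 15 members within ranks 1 to 100 were wider than that, at 390 to 515 bp with a median of 447 bp. The 66 members of ranks 101 to 500 had a median of 269 bp, and the 75 of ranks 501 to 1000 a median of 184 bp. From rank 2001 on, 172 of 176 members had 370 bp. Among the 157 members of any other width, without the repeated entries, width fell with rank with a Spearman's rho of -0.877, a description across regions of the same list. The narrowest members, 6 of them, measured 92 bp, among them II 4955522 to 4955613 with rank 971 and II 8891126 to 8891217 with rank 833. The latest rank of a member without the common width, repeats aside, was 2277. Of the 133 members narrower than 370 bp, 112 were among the 1000 best. Widths by rank over all combined regions are not given here, so the 2 branches cannot be called particular to this stretch.

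**Figure D4:**
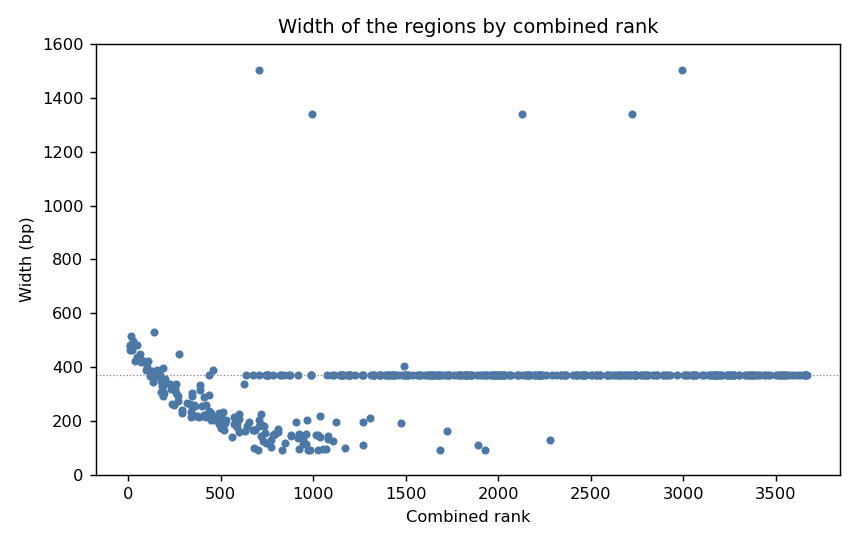
Width in bp of each of the 453 regions by combined rank, with the common width of 370 bp as a dotted line. The median width is 447 bp for ranks 1 to 100 and 269 bp for ranks 101 to 500, a second branch stays at 370 bp, and the 5 entries at 1341 and 1503 bp are the repeated entries of the widest locus.

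Nearly all members recurred in the replicate lists. The combined list came from IDR, which compares peak ranks between replicates, so this share is no separate evidence. The thresholds and any pooling behind the list are not given, so how far it was chosen by recurrence is unknown. Of the 453 members, 448 overlapped a peak of both lists by at least 1 bp, or 98.9% (exact 95% interval 97.4% to 99.6%), against 99.2% of all combined regions. A stricter view is whether a member lay within the first 3669 ranks of both lists, as many as the combined list has. This held for 336 members, or 74.2% (exact 95% interval 69.9% to 78.1%), against 68.6% of all combined regions and 66.3% of those left of the boundary. The groups differed in their mix of ranks, and the difference in recurrence was not tested. From rank 2001 on lay 38.9% of members, 45.5% of all combined regions and 49.2% of those left of the boundary. Of the 117 members that failed this, 50 stood within those ranks in replicate 1 only, 53 in replicate 2 only and 14 in neither. Members in neither made up 3.09%, against 2.94% of all combined regions. Those ranks of replicate 1 held 85.2% of members and 82.4% of all combined regions. In replicate 2 the shares were 85.9% and 83.3%. The misses were thus split nearly evenly between the replicates, here as in the whole list.

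Recurrence fell with combined rank, in a list made from these same replicates. Shares by rank class over all combined regions are not given here, so the fall cannot be called particular to this stretch. Of members ranked 1 to 500, 80 of 81 were within the first 3669 of both replicates, the exception being II 12919179 to 12919392, and of those ranked 501 to 1000 all 75 were. The share was 95.9% for ranks 1001 to 2000 (116 of 121), 58.3% for ranks 2001 to 3000 (60 of 103) and 6.85% beyond rank 3000 (5 of 73). Midpoints of the best overlapping replicate peak lay a median of 3 bp from the member's midpoint in replicate 1 for ranks 1 to 100, and 29.5 bp beyond rank 3000. In replicate 2 the medians were 6.5 and 20 bp. Across the 448 members in both lists the replicate ranks had a Spearman's rho of 0.742, compared with 0.610 for the 183 such regions left of the boundary and 0.662 over all 3640. These are descriptions across regions that share libraries and that the combined list had already chosen. The groups also differ in their mix of ranks, and the differences in rho were not tested.

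**Figure D5:**
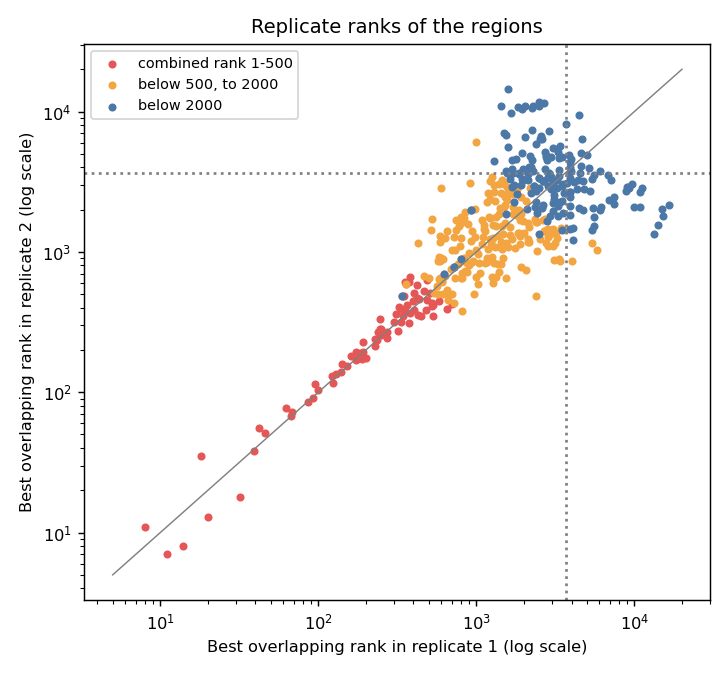
Best overlapping rank of each of 448 regions in replicate 1 and replicate 2, both on log scales, coloured by combined rank, with the line of equal ranks and dotted lines at rank 3669. Red points, combined ranks 1 to 500, lie along the line, and blue points, beyond rank 2000, spread to both sides.

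Ranks in the 2 replicates were within a factor of 2 for 331 of the 448 members, or 73.9%, against 72.2% of all 3640 combined regions in both lists. They were more than a factor of 4 apart for 27, or 6.03%, against 7.28% of the 3640. Of the 27, 15 ranked better in replicate 1 and 12 in replicate 2. All 27 had the common width, as did 172 of the 176 members from rank 2001 on. The median combined rank of the 27 was 2740. The largest disagreement was at II 9285215 to 9285584, rank 13278 in replicate 1 and 1346 in replicate 2, a factor of 9.86. It overlapped another member, II 9284964 to 9285333, whose best peak in replicate 2 was the same one. II 9557396 to 9557765 ranked 14160 in replicate 1 and 1566 in replicate 2, and II 10819972 to 10820341 ranked 15161 and 1814. In the other direction, II 5918181 to 5918550 ranked 1591 in replicate 1 and 14424 in replicate 2. II 11694382 to 11694751 ranked 1423 in replicate 1 and 10964 in replicate 2. These 5 had combined ranks of 2359 to 3299, in the weaker part of the list.

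Only 5 members were missing from a replicate list. II 12919179 to 12919392, combined rank 420, is the strongest of them. It had rank 426 in replicate 2 and no overlapping peak in replicate 1, where the nearest peak was 1985 bp away with rank 10755. II 8683921 to 8684290, rank 2696, and II 9620211 to 9620580, rank 3663, were also absent from replicate 1, and had ranks 1271 and 1411 in replicate 2. There the nearest replicate 1 peaks lay 116 and 167 bp off the region's edge with ranks 26098 and 21928. II 5335794 to 5336163, rank 2895, and II 8456961 to 8457330, rank 3520, were absent from replicate 2, and had ranks 1640 and 1696 in replicate 1. The nearest replicate 2 peaks were 131 and 7193 bp away. The weakest members of all were II 7684452 to 7684821 with rank 3666, II 9620211 to 9620580 with rank 3663, II 7092603 to 7092972 with rank 3660, II 10555447 to 10555816 with rank 3658 and II 11813945 to 11814314 with rank 3654. Their scores were 2.38 to 2.40.

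Seen from the replicate lists, the combined list, which was made from these replicates, kept nearly all strong peaks of the stretch. Shares over the whole replicate lists are not given here, so the counts cannot be called particular to this stretch. Replicate 1 had 154 peaks within its first 1000 ranks here, and all 154 overlapped a combined region. Replicate 2 had 149, of which 148 did. Of ranks 2001 to 3669, 66.12% in replicate 1 (121 of 183) and 66.10% in replicate 2 (117 of 177) overlapped one. Of lower ranks, 5.26% of 2813 peaks in replicate 1 and 3.94% of 2868 in replicate 2 did. The whole replicate lists had 3276 and 3321 peaks in the stretch, and 51.2% of those of replicate 1 overlapped some peak of replicate 2.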

How the data were processed

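Peaks of 2 LSY-2 GFP ChIP samples were analysed as the authors deposited them: 1 list per replicate with 30000 peaks each, and 1 combined list of 3669. Per the file headers the build is WormBase WS220 and the peaks come from SPP followed by IDR, a procedure that compares peak ranks between replicates. The aligner, tool versions, thresholds and any pooling: not given in the sources used here. Each peak has a deposited score of unstated scale, which ties at a maximum per list. Per the labels' protocols, chromatin was fixed in 2% formaldehyde and 10% of the lysate was kept as input. Depth is unknown, so precision per region cannot be given.

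Overlaps (at least 1 bp), distances, chains and windows were computed with scipy 1.17.1 and pandas 2.3.3 in Python 3.11.15 (numpy 2.4.6; plots by matplotlib 3.10.9), and the steps were checked on simulated lists. Where several replicate peaks overlapped a region, the best rank was taken. Shares have exact Clopper-Pearson intervals. No hypothesis test was run, since regions are not independent replicates. Named were the 20 best and 5 weakest members, those missing from a list, those at the boundary, the extremes of spacing, width and replicate disagreement, and the fullest windows and chains. Where the fifth place among windows was tied, all tied windows were named. The members and lists were chosen with earlier results of these data known. Sequence and gene annotation were not used here.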

Additional observations from a re-analysis of the deposited data

How the results depend on the processing

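Of 31 values recomputed under alternatives, 18 stayed within the interval of the value reported or, for the count of windows, within 1.5 times, and 13 moved. With a reciprocal overlap of 50% as the criterion, 82.3% of members recurred in both lists, with midpoints within 100 bp 90.7%, and 99.3% to 99.6% with a single replicate. With that reciprocal overlap 57.8% lay within the first 3669 ranks of both, and with a single replicate, which asks for less, 85.2% to 85.9% did. The reciprocal criterion asks for 50% of both widths. Members narrower than 50% of their replicate peak thus fail it wherever they lie. An example is II 8891126 to 8891217, rank 833, with 92 bp against replicate peaks of 380 and 356 bp. The share among the 1000 best was 33.8% to 34.2% when ranked by a single replicate. The density was 30.5 per Mb with regions within 5 kb merged and 24.5 per Mb in the better 50% of the list, where the median gap was 23638 bp, and the gap was 15334.5 bp with regions within 1 kb merged. A neighbour was present for 23.0% within 2 kb and 64.7% within 10 kb. Windows of 100 kb with 12 or more members numbered 2. The common width was held by 38.6% in the better 50% of the list. Each of these settings asks for more, for less or for fewer regions by construction. Counting identical coordinates once, an alternative chosen after seeing the data, moved none of the 8 results. It left 11 windows with 6 or more members, and II 8400001 to 8450000 then held 5. No fit with the replicate number as a block exists, since the inputs have no values here. The limit that depth sets on weak regions is unknown.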

Other observations

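A few strong replicate peaks of the stretch lay outside the combined list. The best was II 13908490 to 13908845, rank 582 in replicate 2 with the maximum score of that list, 20.3 kb from the nearest combined region by midpoints and without an overlapping peak in replicate 1. Others were present in both replicates. II 11440145 to 11440500 had rank 1218 in replicate 2, and its counterpart II 11440153 to 11440532 had rank 1885 in replicate 1. II 13083654 to 13084033 had rank 1247 in replicate 1, and its counterpart in replicate 2 had rank 1863. II 9416606 to 9416985 had rank 1620 in replicate 1, and its counterpart had rank 2066. Within the first 3669 ranks, 46 of the 463 peaks of replicate 1 here overlapped a peak of replicate 2 and no combined region. In replicate 2, 51 of 453 overlapped a peak of replicate 1 and no combined region. A further 21 peaks of replicate 1 and 14 of replicate 2 overlapped neither. Shares over the whole replicate lists are not given here, so these counts cannot be called particular to this stretch. Why the combined list left these peaks out was not tested.

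Overlapping members counted some replicate peaks more than once. There were 11 overlapping neighbours among the 453, and 17 members shared their best peak in replicate 1 with another member, as did 17 in replicate 2. II 14251453 to 14251841 and II 14251453 to 14251855, ranks 456 and 1491, start at the same base, and both had best ranks of 358 in replicate 1 and 594 in replicate 2. II 5844620 to 5844953 with rank 385 and II 5844798 to 5845167 with rank 2657 likewise shared ranks 340 and 488.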
